A study of Homo sapiens with 208 samples.

Results

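The dual-specificity MAPK phosphatases described here are the 10 genes of a named list, DUSP1, DUSP2, DUSP4, DUSP5, DUSP6, DUSP7, DUSP8, DUSP10, DUSP14 and DUSP16, out of 16961 genes with a named probe on the array. All 10 had a probe, and all 10 were among the 13261 genes that passed the filter on dim signal. They were measured on one-colour Agilent whole-genome arrays of cultured human lung adenocarcinoma cells. PC9 is a gefitinib-sensitive line whose epidermal growth factor receptor (EGFR) carries an activating deletion, and PC9M2 (PC9GRM2 in the labels) is 1 clone of PC9 that survived long exposure to gefitinib and that carries neither MET amplification nor the common secondary EGFR mutation. Both lines were starved for 48 h and then left untreated or given 100 ng/ml EGF, 0.5 μM gefitinib, an inhibitor of the EGFR kinase, or both. Gefitinib was present before the first sampling and EGF was added at 0 h. RNA was taken at 26 time points, at 0 h, 0.5 h and every hour from 1 h to 24 h, which gives 8 courses of 26 arrays.

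Dual-specificity MAPK phosphatases switch off mitogen-activated protein kinases by removing the phosphates from the threonine and the tyrosine of the activation loop. DUSP1, DUSP2, DUSP4 and DUSP5 are nuclear and inducible, DUSP6 and DUSP7 are cytoplasmic and prefer ERK, and DUSP8, DUSP10 and DUSP16 prefer the stress kinases JNK and p38. Several of them are transcribed in response to ERK itself, which makes them feedback regulators of growth factor signalling, and DUSP6 is widely used as a readout of ERK output in EGFR-driven lung cancer.

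All values are log2 signals after quantile normalization, and all effects are mean log2 differences between courses at matched time points, with the standard error (SE) over the 26 time points. Each course has 1 array per time point, so successive time points stand in for replicates and p-values measure only the spread between time points. Neighbouring time points were not independent, with a lag-1 autocorrelation of the gefitinib effect on DUSP6 of 0.79 in PC9 and 0.83 in PC9M2, against medians of 0.29 and 0.26 over all tested genes. A gene was called at a Benjamini-Hochberg adjusted p under 0.05 in limma's moderated test over all 13261 genes. Beside each count of members stands the share of all tested genes called in the same comparison. The 4 treatments of a line and time point shared a slide and each treatment always lay at the same position on it, so treatment and slide position cannot be told apart. The lines shared 0 of the 52 slides and 0 of the 17 scan days, so line and scan day cannot be told apart either. The epithelial markers EPCAM and CDH1 were well above background on every array, whereas the leukocyte marker PTPRC was on 1 array and the lung lineage factor NKX2-1 on 13 arrays. Of 4 lung lineage, 4 leukocyte, 4 fibroblast and 3 endothelial markers, 3, 3, 0 and 2 passed the filter on dim signal. With gefitinib 2 lung lineage markers were higher in each line, and 2 leukocyte markers in PC9 and 1 in PC9M2. Of all tested genes 34.8% were called higher with gefitinib in PC9 and 32.5% in PC9M2. Both endothelial markers were called with gefitinib, 1 higher and 1 lower in PC9 and 2 higher in PC9M2, with median differences of 0.79 and 0.84. Between the lines, both had lower signals in PC9M2 whatever the treatment, with medians from -1.27 to -1.22. Of all tested genes 34.8% to 37.8% were called lower in PC9M2 in these comparisons. The part of these markers in the results was not tested.

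2 arrays went against their labels. On the PC9M2 slide of 0.5 h, a score over the 500 genes with the largest gefitinib effect in that line, the members left out, was 0.25 on the library labelled EGF and -0.28 on the library labelled EGF+gefitinib. On the other 102 arrays of PC9M2 the score was 0.17 or higher wherever gefitinib was labelled and -0.19 or lower wherever it was not, and no array of PC9 went against its label. DUSP6 showed the same order on that slide, at 7.75 on the library labelled EGF and 12.53 on the library labelled EGF+gefitinib, beside 13.05 untreated and 7.85 with gefitinib. The labels were kept, and the tests that include these 2 arrays were run with and without them. The PC9M2 untreated array of 11 h also stood apart from its neighbours in time, as did PC9 untreated at 18 h and PC9 gefitinib at 16 h, and results were recomputed without these 3 arrays.

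Gefitinib lowered most of the inducible phosphatases in PC9, and DUSP6 most of all. Of the 10 members, 7 fell and DUSP10 rose, against 72.2% of all tested genes called and 37.4% called lower. The median effect was -0.93 over the members and -0.03 over all tested genes. DUSP8 and DUSP16 did not pass the test.

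DUSP6, the cytoplasmic ERK phosphatase, ranged from 12.80 through a median of 13.34 to 13.94 in untreated PC9 and from 5.00 through 6.13 to 9.32 with gefitinib. The courses did not overlap, with every gefitinib array far below every untreated one. The mean difference was -6.81 ± 0.27 (SE, 26 time points), a 112-fold lower signal with limma's adjusted p = 1.14e-17. In size it stood at the 99.99th percentile of all tested genes. Only 24 of the 26 gefitinib arrays held a DUSP6 signal well above background, so the lowest values lay close to the lower end of the scale. Under the alternative settings, which include subsets of the time points, the difference ran from -7.76 to -4.85 and passed each time. Its fold therefore depends on the setting.

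DUSP4, a nuclear phosphatase of ERK and JNK, was between 11.50 and 12.56 in untreated PC9, with a median of 12.24. With gefitinib it was between 7.78 and 11.26, with a median of 9.09, again without overlap. The difference was -3.00 ± 0.12, a 7.98-fold lower signal with adjusted p = 1.14e-17. DUSP2, a nuclear phosphatase best known from activated leukocytes, ranged from 6.21 through 7.55 to 8.88 untreated and from 4.61 through 5.17 to 5.89 with gefitinib. These courses did not overlap either, and the difference was -2.33 ± 0.15 with adjusted p = 2.12e-13. Separation of that kind between the gefitinib and untreated courses of PC9 was seen for DUSP2, DUSP4 and DUSP6 among the members and for 1.6% of all tested genes.

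DUSP7, the close relative of DUSP6, was the dimmest member. It ranged from 4.39 through 6.14 to 6.85 untreated and from 2.16 through 3.89 to 7.03 with gefitinib, where 9 of 26 arrays held it well above background. The difference of -2.13 ± 0.20 (adjusted p = 1.84e-10) passed the test, but it was -0.25 after normexp background correction, and those of DUSP2, DUSP1 and DUSP10 were then -0.66, -0.39 and 0.30, each still past the threshold. DUSP14, a small atypical family member without the kinase-docking domain, fell in 26 of 26 time points, from a median of 11.70 to 10.57, by 1.05 ± 0.06 on the log2 scale (adjusted p = 3.53e-15). DUSP5, the nuclear ERK-selective phosphatase, fell from a median of 10.54 to 9.67, by 0.81 ± 0.06 (adjusted p = 3.86e-12). Its probe may share signal with the pseudogene DUSP5P1, which was not tested.

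DUSP1, the immediate early phosphatase of p38, JNK and ERK, fell from a median of 9.04 to 8.50, and its difference was -0.62 ± 0.08 with adjusted p = 7.93e-08. DUSP10, which prefers p38 and JNK, went the other way. It ranged from 6.39 through 6.89 to 8.02 untreated and from 6.58 through 7.60 to 9.20 with gefitinib, and was higher with the drug in 26 of 26 time points (0.61 ± 0.06, adjusted p = 7.54e-10). The courses overlapped. For DUSP8 the difference was -0.14, with a 95% interval from -0.34 to 0.06, and for DUSP16 it was 0.10, with an interval from -0.07 to 0.27.

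**Figure D1:**
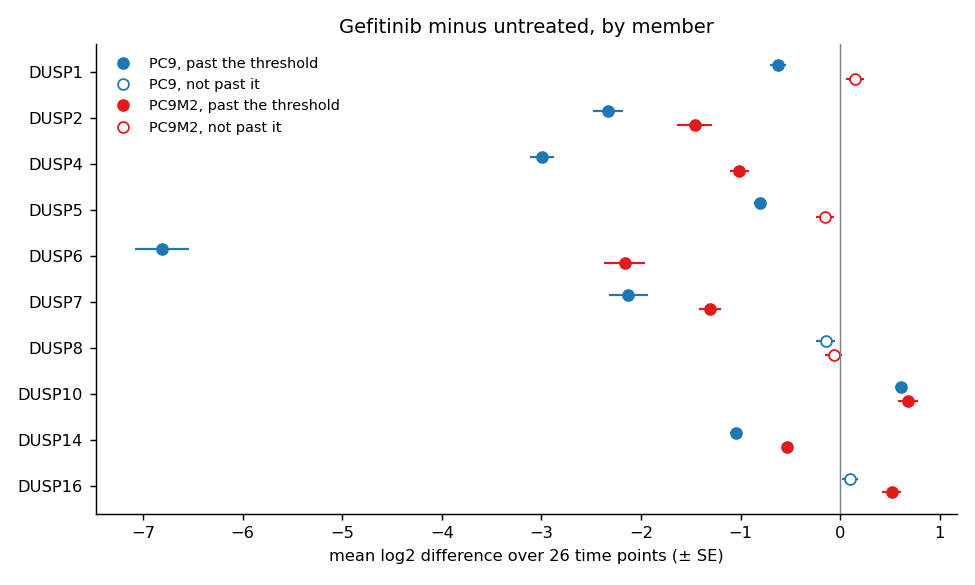
Mean log2 difference of the gefitinib course from the untreated course over 26 time points (x axis, ± SE) for each member in PC9 (blue) and PC9M2 (red). Filled points passed limma's adjusted p of 0.05; DUSP6 in PC9 lies at -6.81, apart from the other members, and DUSP10 lies above 0 in both lines.

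In PC9M2 the same dose of gefitinib lowered 5 members and raised 2, against 66.5% of all tested genes called and 34% called lower. DUSP6 ranged from 12.13 through 13.16 to 13.87 untreated and from 7.75 through 11.70 to 12.14 with gefitinib, and the courses overlapped only in that the highest gefitinib value exceeded the lowest untreated one, that of 0 h. Its difference was -2.16 ± 0.21 with adjusted p = 4.7e-10. In PC9M2 0.852% of all tested genes had gefitinib and untreated courses that did not overlap, and no member was among them.

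DUSP2 fell from a median of 8.01 to 6.98 (-1.46 ± 0.17, adjusted p = 2.42e-08) and DUSP7 from 5.22 to 4.18 (-1.31 ± 0.11, adjusted p = 5.89e-11). DUSP4 fell from 11.60 to 10.72 (-1.01 ± 0.10, adjusted p = 4.93e-10). DUSP14 fell by 0.53 ± 0.04 (adjusted p = 2.13e-11). Each of these members was lower with gefitinib in 26 of 26 time points. After normexp background correction DUSP7 was at -0.15 and DUSP2 at -0.62, both still past the threshold. The members that rose were DUSP10 (0.68 ± 0.10, adjusted p = 1.62e-06) and DUSP16 (0.52 ± 0.09, adjusted p = 1.83e-05), each in 25 of 26 time points. DUSP16 did not pass in the first 13 time points (0.25, adjusted p = 0.146) and was at 0.14 after normexp, where DUSP10 was at 0.44. DUSP8, which also prefers the stress kinases, was at -0.06 (95% interval from -0.23 to 0.11) and did not pass. DUSP1 was 0.15 ± 0.09 and DUSP5 -0.15 ± 0.09, and neither passed. Without the 3 arrays that stood apart DUSP5 was -0.21 and passed, with adjusted p = 0.00805.

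The gefitinib effect differed between the lines for 8 members, each of which was less lowered or more raised in PC9M2, against 34.1% of all tested genes. The difference, PC9M2 minus PC9, was 4.65 ± 0.46 for DUSP6 (adjusted p = 1.65e-08), a size that no other tested gene exceeded, and 1.98 ± 0.18 for DUSP4 (adjusted p = 4.99e-09). DUSP2, DUSP7 and DUSP1 differed by 0.87 ± 0.14, 0.82 ± 0.22 and 0.78 ± 0.09, and DUSP5, DUSP14 and DUSP16 by 0.65 ± 0.12, 0.52 ± 0.07 and 0.42 ± 0.11. For DUSP10 the difference was 0.07, with a 95% interval from -0.16 to 0.31, and for DUSP8 it was 0.08, with an interval from -0.17 to 0.33. After normexp background correction DUSP2 no longer passed (0.037, adjusted p = 0.56), and DUSP6 was at 2.89, DUSP1 at 0.43, DUSP7 at 0.11 and DUSP16 at 0.099. DUSP7 and DUSP16 no longer passed when only time points 3 h apart were used, nor did DUSP5, DUSP7 and DUSP16 in the first 13 time points.

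The effect of gefitinib on DUSP6 ran in opposite directions over time in the lines. In PC9 with gefitinib, DUSP6 was at 9.32 at 0 h and went down to 6.51 at 6 h, 5.51 at 12 h and 5.21 at 24 h. In PC9M2 it began lower, at 7.75 at 0 h, and climbed to 10.98 at 6 h and 11.70 at 12 h, where it stayed to 24 h at 11.68. At 0 h the difference from untreated was therefore -3.49 in PC9 and -4.37 in PC9M2, each from 1 pair of arrays. The mean difference of 0 to 6 h was -4.97 ± 1.06 (SD, 8 time points) in PC9 and that of 18 to 24 h was -8.05 ± 0.33 (SD, 7 time points). In PC9M2 the same windows gave -3.47 ± 1.24 and -1.62 ± 0.11.

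The early window less the late window was tested for each member. A value above 0 means that the gefitinib effect became more negative with time, which for a member that fell is a deeper fall. For DUSP6 the change in PC9 was 3.08 ± 0.38 (SE, adjusted p = 4.15e-06), whereas PC9M2 gave -1.85 ± 0.43 (adjusted p = 0.00215). DUSP4 had the same signs, with 1.33 ± 0.23 for PC9 (adjusted p = 0.00012) against -0.85 ± 0.17 for PC9M2 (adjusted p = 0.000765). With gefitinib DUSP4 went from 11.26 at 0 h to 8.37 at 24 h in PC9, and in PC9M2 from 10.49 at 0 h through a low of 9.81 at 2 h to 10.91 at 24 h. DUSP5 did so at a smaller scale, with 0.41 ± 0.12 and -0.65 ± 0.15 in the same order. After normexp background correction the change of DUSP6 in PC9 was 1.37 and that of DUSP4 0.86.

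**Figure D2:**
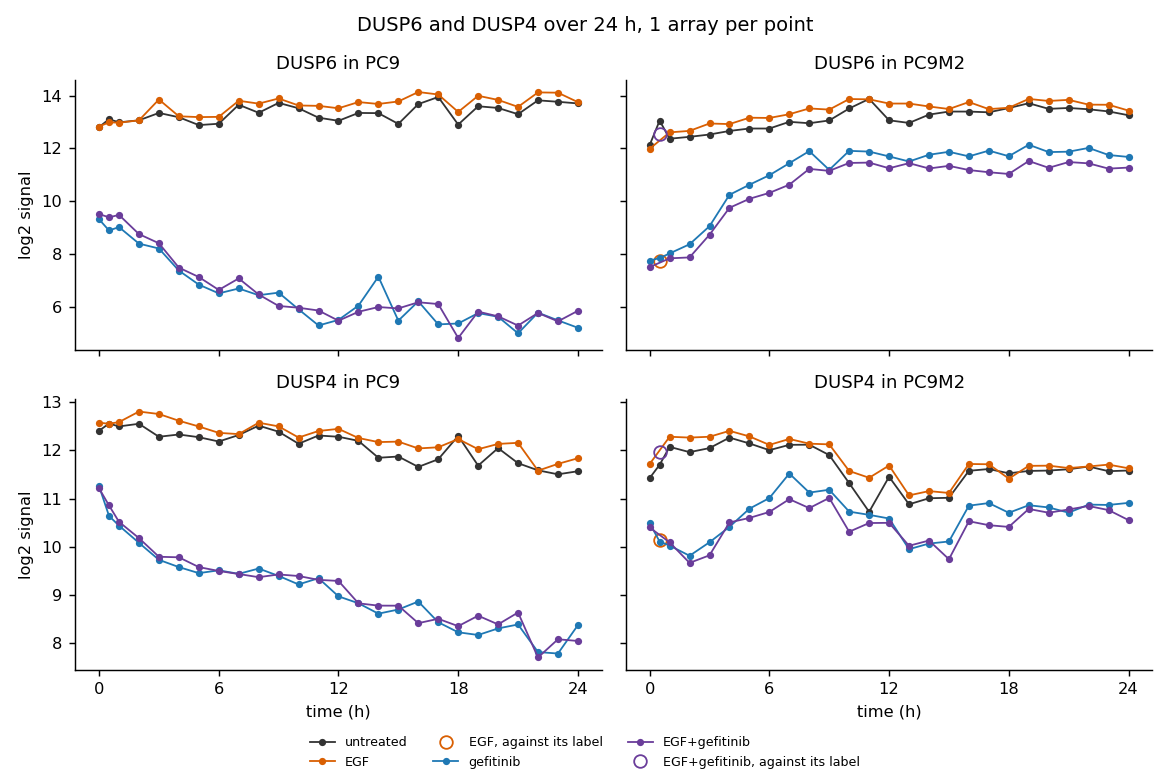
DUSP6 (top) and DUSP4 (bottom) log2 signal (y axis) against time in hours (x axis) in PC9 (left) and PC9M2 (right), 1 array per point, coloured by treatment, with open circles for the 2 PC9M2 arrays of 0.5 h that went against their labels. With gefitinib DUSP6 goes down from 9.32 to 5.21 in PC9 and up from 7.75 to 11.68 in PC9M2.

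DUSP2 differed from that pattern. Its gefitinib effect shrank with time in both lines, with an early less late value of -1.05 ± 0.29 for PC9 (adjusted p = 0.00587) against -1.94 ± 0.23 for PC9M2 (adjusted p = 3.21e-06). In PC9M2 the mean difference was -2.54 ± 0.62 (SD, 8 time points) at 0 to 6 h and -0.60 ± 0.14 (SD, 7 time points) at 18 to 24 h. In PC9 with gefitinib DUSP2 itself stayed low, at 5.49 at 2 h and 5.14 at 24 h. Only 21 of those 26 arrays held it well above background. Untreated PC9 went from 8.88 to 7.12 between these times. In PC9M2 DUSP2 went from 5.95 to 7.08 with gefitinib and from 8.84 to 7.68 untreated. DUSP1 also had its largest loss early in PC9, at -0.94 ± 0.41 against -0.42 ± 0.24 later. The gefitinib effect on DUSP16 was lower early than late in both lines, by 0.54 ± 0.21 (SE) in PC9 and 0.75 ± 0.23 in PC9M2. In untreated PC9M2 the 5 h array held DUSP16 at 8.03, beside 6.15 at 4 h and 6.22 at 6 h. In PC9M2 the gefitinib effect on DUSP8 moved from 0.36 ± 0.36 (SD) early to -0.49 ± 0.10 late, a change of 0.85 ± 0.14 (SE) with adjusted p = 0.000104. Its mean over the whole course did not pass. In all, 6 members passed this test in PC9, against 53% of all tested genes, and 6 passed in PC9M2, against 49.5%.

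The change with time was then compared between the lines themselves, a test added after the courses of DUSP6 and DUSP4 had been seen. 5 members passed, against 23% of all tested genes. The difference, PC9M2 minus PC9, was -4.93 ± 0.79 for DUSP6 (adjusted p = 0.000282), -2.17 ± 0.25 for DUSP4 (adjusted p = 1.29e-05) and -1.06 ± 0.21 for DUSP5 (adjusted p = 0.00173). DUSP2 (-0.90 ± 0.29, adjusted p = 0.0346) and DUSP1 (0.55 ± 0.17, adjusted p = 0.0287) were nearer the threshold, and without the 3 arrays that stood apart DUSP2 was -0.71 with adjusted p = 0.052. It was also lost after normexp background correction (-0.23, adjusted p = 0.0637), where DUSP6 was at -2.65. DUSP1 was lost with windows of 0 to 4 h and 20 to 24 h (adjusted p = 0.0618).

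**Figure D3:**
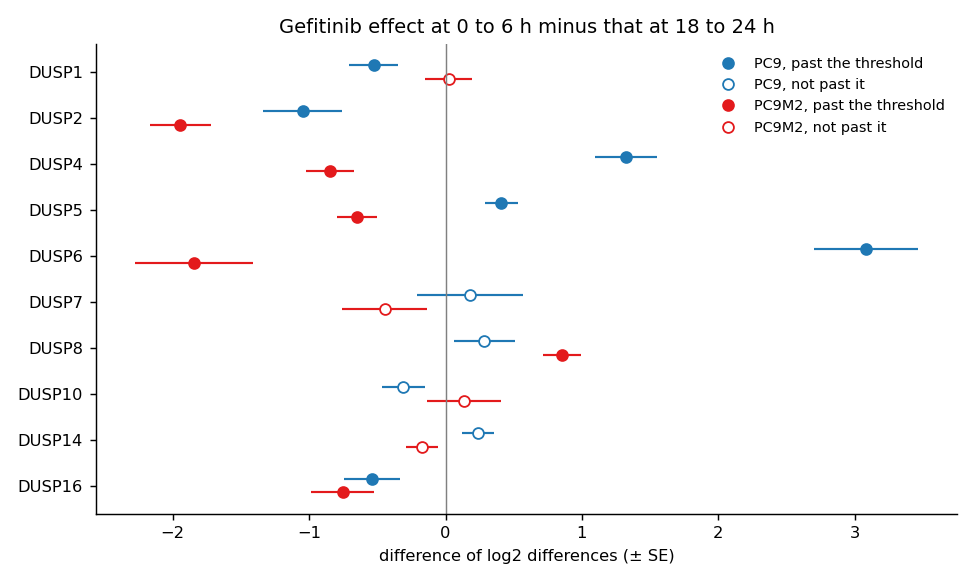
Gefitinib effect at 0 to 6 h minus the effect at 18 to 24 h (x axis, difference of log2 differences ± SE) for each member in PC9 (blue) and PC9M2 (red), filled where it passed the test. DUSP4, DUSP5 and DUSP6 lie above 0 in PC9 and below 0 in PC9M2, whereas DUSP2 and DUSP16 lie below 0 in both.

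EGF raised the phosphatases in PC9 by small amounts. 9 of the 10 members were higher with EGF, all but DUSP8, against 25.6% of all tested genes called and 11.3% called higher. DUSP1 rose by 0.55 ± 0.09 (adjusted p = 3.39e-05), DUSP2 by 0.45 ± 0.07 and DUSP7 by 0.41 ± 0.11. DUSP5, DUSP14, DUSP10 and DUSP6 rose by 0.32 ± 0.05, 0.30 ± 0.06, 0.27 ± 0.04 and 0.27 ± 0.04, and DUSP4 and DUSP16 by 0.19 ± 0.03 and 0.19 ± 0.05. The calls of DUSP7 and DUSP16 were lost under 5 and 4 of 19 alternatives, with lowest values of 0.042 and 0.053. Each of the other calls was lost under 2 or 3. The EGF and untreated courses overlapped for each member, as they did for every tested gene. When the courses were compared without pairing the time points, the change over time entered the spread. None of the 9 members passed then, against 3.02% of all tested genes.

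DUSP1 had a sharp early peak with EGF in PC9. In PC9 with EGF it was at 9.96 at 0 h, 11.80 at 0.5 h, 11.71 at 1 h, 10.90 at 2 h, 10.49 at 3 h and 9.79 at 4 h. The untreated course at those times was at 9.79, 10.03, 9.98, 9.52, 9.49 and 9.22. The EGF effect was 1.47 ± 0.36 (SD, 4 time points) at 0.5 to 3 h and 0.39 ± 0.24 (SD, 21 time points) at 4 to 24 h, a change of 1.08 ± 0.14 (SE) with adjusted p = 0.000386. DUSP1 was the only member to pass this test, against 0.769% of all tested genes, and 3 members had an unadjusted p under 0.05. With gefitinib present, DUSP1 with EGF was at 8.79 at 0.5 h and 8.72 at 1 h. DUSP14 was also high early with EGF in PC9, at 12.68, 13.23 and 13.47 at 1, 2 and 3 h. Its untreated course was then at 12.41, 12.50 and 12.32.

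The RefSeq promoter table (GRCh38.p14, 250 bases before to 50 after each start) held an entry for 8 members and none for DUSP4 and DUSP5. Windows were searched on both strands for AP-1 (TGANTCA), the cAMP response element or CRE (TGACGTCA), its half-site (TGACG, which also lies inside every CRE), an ETS core (CCGGAA) and a FOXO motif (GTAAACA). The full CRE was found in 1.8% of the 35116 promoters in the table, and the AP-1, half-site, ETS and FOXO letters in 7.7%, 24.6%, 17.2% and 3.4%. 3 of the windows are printed because their genes stand for the contrasting responses, DUSP1 for the early EGF peak, DUSP6 for the deepest gefitinib fall and DUSP8 for a member that passed neither test in PC9. Each is read 5′ to 3′ along the gene from the minus strand, and capitals mark a match to the CRE.
DUSP1, chr5:172771146-172771445: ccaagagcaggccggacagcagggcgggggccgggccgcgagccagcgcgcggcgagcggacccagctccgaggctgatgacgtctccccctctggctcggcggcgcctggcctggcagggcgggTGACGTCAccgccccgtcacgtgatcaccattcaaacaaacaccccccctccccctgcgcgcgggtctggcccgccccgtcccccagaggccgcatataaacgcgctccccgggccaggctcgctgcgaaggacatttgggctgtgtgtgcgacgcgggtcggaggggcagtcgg
DUSP6, chr12:89352452-89352751: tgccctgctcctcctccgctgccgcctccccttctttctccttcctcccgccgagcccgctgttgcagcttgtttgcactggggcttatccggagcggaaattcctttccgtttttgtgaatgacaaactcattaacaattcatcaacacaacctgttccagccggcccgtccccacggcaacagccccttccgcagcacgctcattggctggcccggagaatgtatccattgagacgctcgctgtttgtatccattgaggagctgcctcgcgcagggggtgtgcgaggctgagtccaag
DUSP8, chr11:1572222-1572521: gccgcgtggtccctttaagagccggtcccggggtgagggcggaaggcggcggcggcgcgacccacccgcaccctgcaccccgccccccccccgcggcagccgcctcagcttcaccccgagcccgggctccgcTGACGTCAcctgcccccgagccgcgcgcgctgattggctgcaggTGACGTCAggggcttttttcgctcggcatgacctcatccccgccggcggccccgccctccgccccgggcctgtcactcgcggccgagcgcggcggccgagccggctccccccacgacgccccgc
The DUSP1 window held 1 CRE, which begins at position -125 from the start site, and the DUSP8 window held 2, which begin at positions -118 and -74. The DUSP6 window held none of the 5 motifs. The EGF effect on DUSP8 in PC9 was 0.13 ± 0.06 (limma's adjusted p = 0.0999). Of the members not printed, DUSP10 held 1 CRE half-site, at position -4, and no other motif. The windows of DUSP2, DUSP7, DUSP14 and DUSP16 held none of the 5 motifs. The part of these motifs in the responses was not tested.

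In PC9M2 the EGF result depended on the arrays that went against their labels. With all arrays DUSP1 (0.27 ± 0.09, adjusted p = 0.0464) and DUSP5 (0.26 ± 0.08, adjusted p = 0.0495) passed, against 9.07% of all tested genes. Without the 0.5 h arrays 6 members passed, against 11.6% of all tested genes, and all 6 were higher with EGF. These were DUSP6 (0.28, adjusted p = 3.84e-05), DUSP4 (0.16, adjusted p = 0.00186), DUSP14 (0.17), DUSP1 (0.30), DUSP5 (0.29) and DUSP7 (0.33). DUSP5 had an early maximum with EGF in this line, at 11.16 at 1 h and 11.24 at 2 h against a course median of 10.20.

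DUSP1 in PC9M2 was at 8.30, 8.45 and 8.41 with EGF at 1, 2 and 3 h, against 7.67, 6.96 and 7.37 untreated. The early window of EGF exceeded the late one by 0.48 ± 0.23 for DUSP1 with all arrays and by 0.86 without the 0.5 h arrays, with adjusted p = 0.469 and 0.0598. In limma 0 members passed this early test in PC9M2, against 0.324% of all tested genes, and 3 had an unadjusted p under 0.05. The EGF effect itself was not shown to differ between the lines for any member. 0 members passed in limma and 0 in the methods' t-test, against 1.34% of all tested genes, and 5 had an unadjusted p under 0.05. For DUSP1 the difference, PC9M2 minus PC9, was -0.28 ± 0.10 with all arrays (adjusted p = 0.194) and -0.20 without the 0.5 h arrays.

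**Figure D4:**
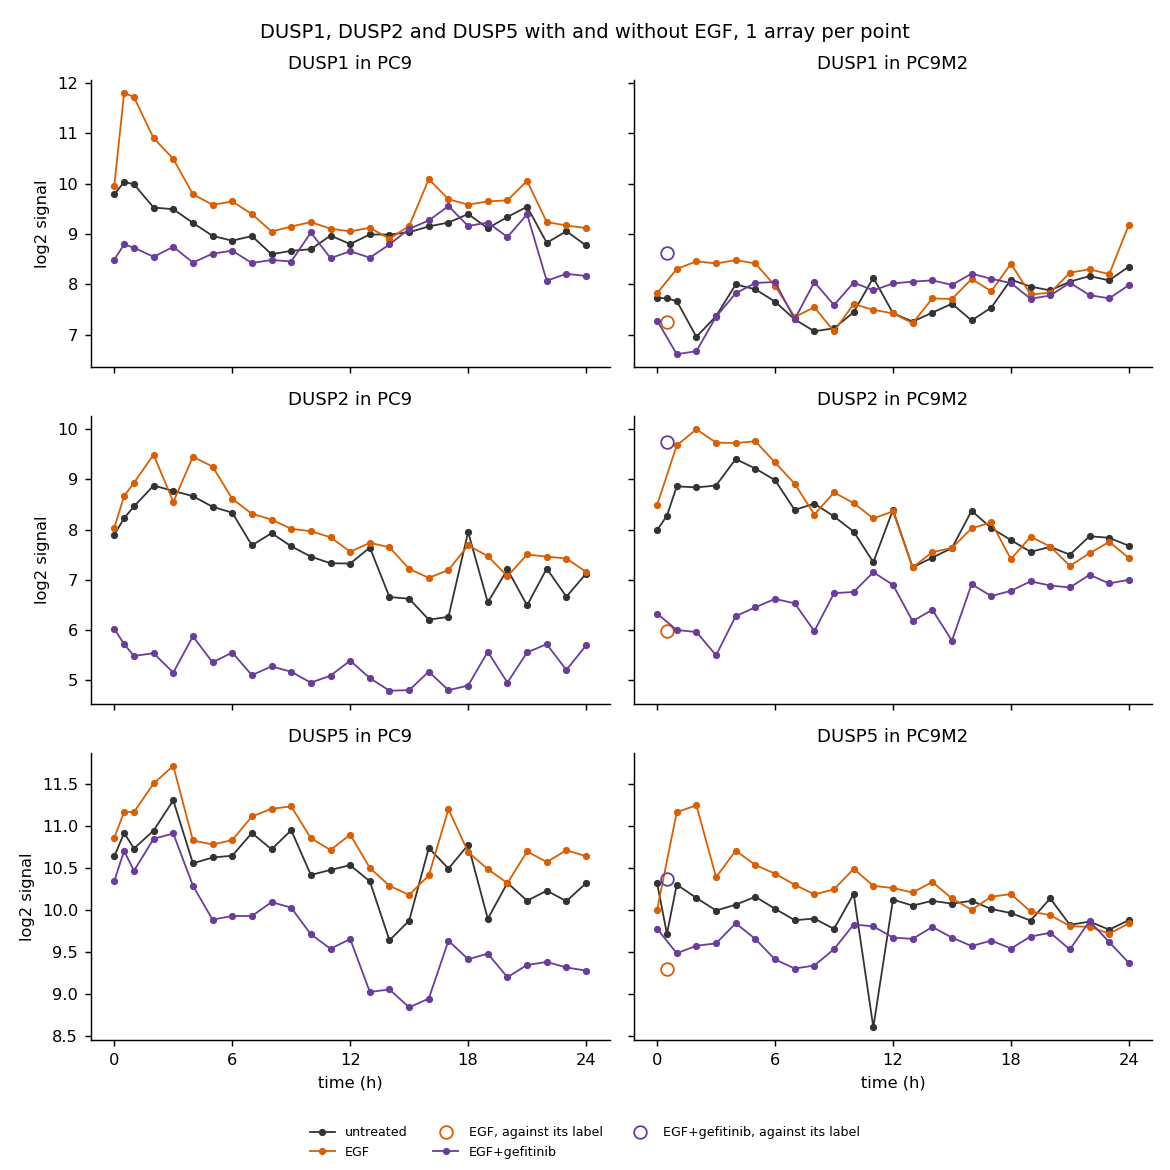
DUSP1, DUSP2 and DUSP5 log2 signal (y axes, which start above 0) against time in hours (x axis) in PC9 (left) and PC9M2 (right) for the untreated, EGF and EGF+gefitinib courses, 1 array per point, with open circles for the 2 arrays that went against their labels. DUSP1 in PC9 reaches 11.80 at 0.5 h of EGF, and the PC9M2 untreated array of 11 h dips to 8.60 for DUSP5.

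Gefitinib was present in both courses when EGF was tested on top of it, which asks whether EGF still moved the phosphatases with the drug present. Inhibition of the kinase itself was not measured on these arrays. In PC9 0 members passed in limma or in the methods' t-test, against 0.0452% of all tested genes, and 3 had an unadjusted p under 0.05. DUSP16 had the largest value, at 0.23 ± 0.06 (adjusted p = 0.147), and DUSP1 was at 0.20 ± 0.06. In PC9M2 0 members passed by either test with all arrays, against 3.11% of all tested genes, and 2 had an unadjusted p under 0.05. Without the 0.5 h arrays 3 members passed, against 7.13% of all tested genes, and all 3 were lower with EGF added. These were DUSP6 (-0.48, adjusted p = 1.1e-08), DUSP5 (-0.21, adjusted p = 0.00913) and DUSP4 (-0.18, adjusted p = 0.0034).

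The interaction of EGF and gefitinib, the EGF effect with the drug less that without it, passed in PC9 for 3 members, against 13.2% of all tested genes. It was -0.35 ± 0.11 for DUSP1, -0.35 ± 0.11 for DUSP2 and -0.28 ± 0.06 for DUSP5. In the first 13 time points alone 0 of these passed, against 0.958% of all tested genes. In PC9M2 it passed for DUSP5 (-0.42 ± 0.12, adjusted p = 0.0207) with all arrays, against 10.1% of all tested genes. Without the 0.5 h arrays it passed for 6 members, against 15.7%. DUSP6 then stood at -0.76 (adjusted p = 3.78e-10), DUSP5 at -0.50, DUSP2 at -0.43, DUSP1 at -0.38, DUSP4 at -0.34 and DUSP14 at -0.20.

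Untreated, the lines differed in 8 of the 10 members, against 68.1% of all tested genes. DUSP1 ranged from 8.60 through 9.04 to 10.03 in PC9 and from 6.96 through 7.66 to 8.35 in PC9M2, and was the one member whose untreated courses did not overlap, as was so for 4.62% of all tested genes. Its difference was -1.49 ± 0.10 (adjusted p = 1.46e-13), a 2.81-fold lower signal in PC9M2. DUSP10 was higher in PC9M2 by 1.12 ± 0.15 (adjusted p = 1.87e-07), from 6.53 through 8.27 to 9.05 against 6.39 through 6.89 to 8.02. DUSP2 was higher by 0.62 ± 0.11. After normexp background correction these differences were -0.77 for DUSP1, 0.55 for DUSP10 and 0.30 for DUSP2.

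The other called members were lower in untreated PC9M2. DUSP14 was lower at 26 of 26 time points (-0.69 ± 0.07, adjusted p = 4.27e-10), DUSP5 by 0.55 ± 0.10, DUSP7 by 0.52 ± 0.14 and DUSP4 by 0.48 ± 0.09. The DUSP7 call was lost at time points 3 h apart (adjusted p = 0.051) and in the first 13 time points (adjusted p = 0.105), and the difference was -0.087 after normexp. DUSP6 differed by only -0.22 ± 0.08 (adjusted p = 0.0241), a call that was lost under 7 of 18 alternatives, among them 75th percentile scaling and time points 3 h apart. DUSP8 (-0.06, 95% interval from -0.37 to 0.26) and DUSP16 (0.14, interval from -0.21 to 0.48) did not pass.

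**Figure D5:**
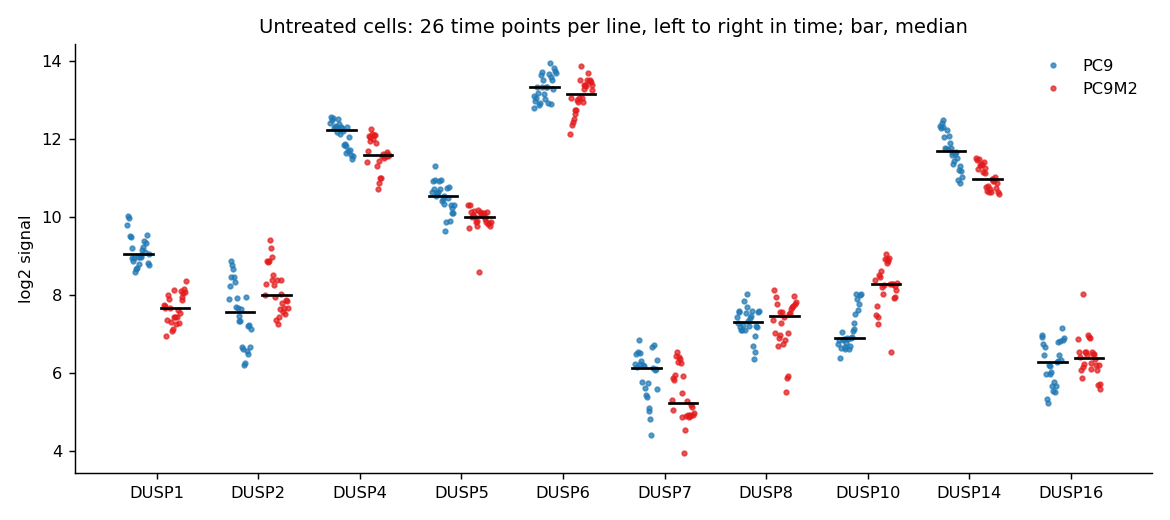
Log2 signal (y axis, which starts above 0) of each member in the 26 untreated arrays of PC9 (blue) and PC9M2 (red), placed from left to right in time within each group, with the median as a bar. Levels are to be compared between lines within a gene, not between genes; for DUSP1 the lines do not overlap.

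With gefitinib the order of the lines turned for DUSP4 and opened for DUSP6. As means over the course, DUSP6 was higher in PC9M2 by 4.43 ± 0.49 (adjusted p = 5.68e-09), DUSP4 by 1.51 ± 0.20 and DUSP2 by 2.82-fold (adjusted p = 4.62e-10). From 0 to 2 h DUSP6 and DUSP4 were lower in PC9M2. At 0 h DUSP6 was at 7.75 in PC9M2 and 9.32 in PC9, and DUSP4 at 10.49 and 11.26. DUSP10 and DUSP16 were higher by 1.19 ± 0.17 and 0.56 ± 0.14, and DUSP1 stayed lower, by 0.72 ± 0.09. In all 6 members passed, against 64.7% of all tested genes. The DUSP4 call was lost with variance inflated for autocorrelation (adjusted p = 0.072), and its difference was 0.80 in the first 13 time points. The DUSP16 call was lost under that setting (adjusted p = 0.142), at time points 3 h apart and in the last 13 time points. After normexp background correction DUSP6 was higher by 2.72, DUSP10 by 0.69, DUSP2 by 0.34 and DUSP16 by 0.14, and DUSP1 was at -0.34.

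With both agents 7 members passed, against 67.7% of all tested genes, with DUSP6 higher in PC9M2 by 4.04 ± 0.45, DUSP2 by 1.37 ± 0.14 and DUSP4 by 1.34 ± 0.18. DUSP10 and DUSP16 were higher by 1.21 and 0.33, and DUSP1 and DUSP14 were at -0.93 and -0.33. The DUSP16 call was lost under 10 of 19 alternatives, among them the methods' t-test, and the DUSP14 call under 4. Without the 0.5 h arrays 7 passed as well, against 66.7%, with DUSP6 higher by 4.07, DUSP2 by 1.26 and DUSP4 by 1.35. After normexp background correction DUSP6 was higher by 2.41 and DUSP2 by 0.34. At 0 h with both agents DUSP6 was lower in PC9M2, at 7.51 against 9.51 in PC9.

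With EGF alone 6 members passed, against 69.8% of all tested genes, and without the 0.5 h arrays 8 passed, against 68.9%. DUSP1 was at -1.77 ± 0.16, PC9M2 minus PC9, and at -1.66 without the 0.5 h arrays, and DUSP10 was at 0.92 ± 0.13 and 0.93. DUSP2 was higher by 0.30 ± 0.14 with all arrays (adjusted p = 0.0538) and by 0.42 without the 0.5 h arrays (adjusted p = 7.2e-05).

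Most members changed over time in untreated cells, as did most tested genes. A spline over time passed limma's F-test for all 10 members in PC9, against 66.5% of all tested genes. It passed for 8 in PC9M2, against 67.5%, all but DUSP5 and DUSP16. In PC9 the DUSP6 call was lost with 6 degrees of freedom and with no filter on dim genes, and the DUSP8 call with 3. In PC9M2 the DUSP10 call was lost with 3 and with 6 degrees of freedom, and the DUSP8 call with the probe of highest mean. DUSP2 spanned the widest fitted range in PC9, 1.74, with its highest value of 8.88 at 2 h and its lowest of 6.21 at 16 h. DUSP4 declined from 12.41 at 0 h to 11.57 at 24 h in PC9, and DUSP14 was highest at 2 h and lowest at 21 h.

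Genes whose level went most closely with a member over all arrays were listed as a description, since the arrays share lines, treatments and time points, with the 2 arrays that went against their labels included. For DUSP6 these were SPRY4 (Pearson r = 0.95), an inhibitor of receptor tyrosine kinase signalling, PHLDA1 (0.94) and DUSP4 (0.92). For DUSP4 they were PLAUR (0.92), the urokinase receptor, DUSP6 (0.92) and AEN (0.92). For DUSP2 they were SPRY4 (0.90), AEN (0.89) and TNS4 (0.88). DUSP14 went most closely with PTAFR (0.90), and DUSP1 with PPP1R15B (0.84), a subunit of a stress-regulated phosphatase. The closest genes to DUSP8 and DUSP16, IGF2R and MYZAP, had r = 0.77 and 0.76.

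Of 13 other dual-specificity phosphatases listed, 10 were tested, and gefitinib moved 5 in PC9 (3 higher, 2 lower) and 5 in PC9M2 (4 higher, 1 lower), with medians of 0.09 in both lines. Of all tested genes 72.2% and 66.5% were called in these comparisons. DUSP3, an atypical phosphatase of ERK and JNK, fell by 0.44 ± 0.07 in PC9 and by 0.56 ± 0.06 in PC9M2. DUSP9, DUSP22 and DUSP23 were at 0.05, -0.05 and -0.04 in PC9 and did not pass. Of 3 tyrosine phosphatases of MAP kinases, PTPN5 and PTPRR were tested, and PTPRR fell in PC9M2 by 0.97 ± 0.21.

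Of 17 MAP kinases and their upstream kinases, 16 were tested, with 9 lower and 3 higher with gefitinib in PC9 and 8 lower and 3 higher in PC9M2. That is 75% and 68.8% of the list, beside 72.2% and 66.5% of all tested genes. MAPK14, which encodes p38α, fell by 0.64 ± 0.09 in PC9 and by 0.38 ± 0.06 in PC9M2. MAPK3, which encodes an ERK, was at 0.16 ± 0.08 and -0.17 ± 0.08 and did not pass, while MAPK8 was not tested here. The median over these kinases was -0.28 in PC9 and -0.19 in PC9M2.

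Of 17 ERK output genes other than phosphatases, 16 were tested. All 16 fell with gefitinib in PC9, with a median of -2.86, and 14 fell in PC9M2, with a median of -0.94, where 37.4% and 34% of all tested genes were called lower. The effect was smaller in PC9M2 for 14 of them, beside 17.5% of all tested genes called with a positive difference, PC9M2 minus PC9. SPRY4 fell by 5.00 ± 0.13 in PC9 and by 1.61 ± 0.25 in PC9M2, ETV5, an ETS transcription factor, by 4.83 ± 0.42 and 1.11 ± 0.10, and FOSL1, an AP-1 subunit, by 4.36 ± 0.23 and 2.77 ± 0.13. EGR1, an immediate early transcription factor, fell by 3.79 ± 0.18 in PC9 and was at 0.59 ± 0.31 in PC9M2, where it did not pass. EGR1 also rose with EGF in PC9, by 0.83 ± 0.10, as DUSP1 did.

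Members with several probes were read from the most variable one. The other probe of DUSP2 gave -2.25 and -1.31 for gefitinib in PC9 and PC9M2, that of DUSP10 0.42 and 0.45, and that of DUSP16 0.11 and 0.47. The other probes of DUSP8 lay between -0.07 and 0.13 in these comparisons. Within scan days, DUSP1, DUSP2, DUSP4, DUSP5, DUSP6, DUSP7 and DUSP14 were lower with gefitinib on 8 of 8 days in PC9, and DUSP2, DUSP4, DUSP6, DUSP7 and DUSP14 on 9 of 9 days in PC9M2. Fewer transcripts per cell and fewer cells that express a gene cannot be told apart in these arrays of bulk RNA.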

How the data were processed

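Total RNA of each culture was labelled with Cy3 and hybridised to 1 array. The authors deposited a scanner file per array with background-subtracted signal intensities and spot flags from Feature Extraction 10.5.1.1, and a table of normalized intensities of the same arrays. The deposited signal intensities were quantile-normalized together in R 4.3.3, floored at 1 and taken to log2, without outlier-flagged spots (0.0793% of tested values, 0 for the members). Probes were named through RefSeq accessions (24794 of 41000 probes), the most variable probe of a gene was used, and genes were kept that were well above background on at least 13 of 26 arrays of a course. Paired differences at matched times, time windows and splines with 4 degrees of freedom were tested with limma 3.58.1 (Benjamini-Hochberg adjustment, threshold 0.05), checked on simulated data. The simulated noise was independent between arrays, so that check does not cover the dependence between neighbouring time points. The study's methods used a paired t-test, which was run as an alternative.

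The named genes were all 10 members, 4 lists of related genes with up to 4 genes of each described by value, and the 3 closest genes by correlation. Members and lists were chosen with earlier results of these data known. The arrays' number limits precision, and nothing in the labels says that time points came from separate cultures. Alternatives covered scaling, normexp background correction (offset 50, on median signals in place of the mean signals planned, which were not used here), the deposited table, probe choice, filters, floors, tests, pairing, time points and scan day. RefSeq promoter sequences belong to GRCh38.p14. The values of 1 listed gene are not reported here.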

Additional observations from a re-analysis of the deposited data

Results flagged for a closer look

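Differences between the lines or between early and late times, each by a test of the difference itself in limma, drew attention for these members. The gefitinib effect, PC9M2 minus PC9, differed by 4.65 for DUSP6, 1.98 for DUSP4, 0.87 for DUSP2, 0.82 for DUSP7, 0.78 for DUSP1, 0.65 for DUSP5, 0.52 for DUSP14 and 0.42 for DUSP16. DUSP7 was well above background on 9 of 26 gefitinib arrays in each line.

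The gefitinib effect of 0 to 6 h less that of 18 to 24 h was 3.08 for DUSP6, 1.33 for DUSP4, 0.41 for DUSP5, -0.53 for DUSP1, -1.05 for DUSP2 and -0.54 for DUSP16 in PC9. In PC9M2 it was -1.85 for DUSP6, -0.85 for DUSP4, -0.65 for DUSP5, -1.94 for DUSP2, -0.75 for DUSP16 and 0.85 for DUSP8. The change itself differed between the lines by -4.93 for DUSP6, -2.17 for DUSP4, -1.06 for DUSP5, -0.90 for DUSP2 and 0.55 for DUSP1. The EGF effect of 0.5 to 3 h exceeded that of 4 to 24 h by 1.08 for DUSP1 in PC9.

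Successive time points shared scan days, so the part of scan day in these changes with time was not tested.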

How the results depend on the processing

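Of 3420 values of members under the alternatives, 3213 stayed on their side of the threshold. A further 144 fell out of it and 60 came into it. The remaining 3 turned sign, with a call in the main or the alternative run. Sign changes without a call in either run were counted among the 3213. The 3 were DUSP2 in the EGF by gefitinib interaction of PC9 at time points 3 h apart (0.057), and DUSP5 between the lines, at -0.41 with gefitinib in the first 13 time points and 0.37 with both agents in the last 13. Of 346 counts of called members, 308 stayed within 1.5 times the main count. The cause of the others was not tested beyond the alternatives' own construction.

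Shares of all tested genes that passed stand in brackets. Requiring at least 2-fold left 5 members for gefitinib in PC9 (18.7%) and 4 in PC9M2 (9.72%). For the difference between the lines it left 2 (3.58%). It left 0 for EGF in PC9 (0.158%) and PC9M2 (0.0302%) and for the interactions in PC9 (0.143%) and PC9M2 (0.121%). Between the lines it left 2 untreated (16.8%), 1 with EGF (16.1%) and 4 with both agents (15.7%). For EGF in PC9, 2 members passed at time points 3 h apart (4.09%) and 0 with unpaired courses (3.02%). For EGF in PC9M2, 1 passed with 75th percentile scaling (9.81%), the methods' t-test (9.33%), the first 13 (0.603%) and the last 13 time points (13.2%). With no filter on dim genes (6.39%), time points 3 h apart (0.106%) or variance inflated for autocorrelation (3.94%), 0 passed. Nor did any with scan day as a random block (7.36%) or unpaired courses (0.671%). The difference of the EGF effects gave 1 with normexp (2.2%) and 1 in the last 13 time points (1.44%). EGF under gefitinib in PC9M2 gave 1 at time points 3 h apart (0.897%) and 2 in the last 13 (3.81%). The interaction in PC9 gave 0 at time points 3 h apart (0%), unpaired (0.158%) and in the first 13 time points (0.958%). It gave 1 with inflated variance (7.8%) and 1 in the last 13 (7.11%). That in PC9M2 gave 0 with inflated variance (4.25%), unpaired (0.0905%) and in the first 13 time points (0.00754%), and 3 in the last 13 (16.4%). The difference of the gefitinib effects gave 5 in the first 13 time points (7.9%). Without the PC9M2 0.5 h arrays, chosen for removal after the data were seen, EGF in PC9M2 gave 6 (11.6%). EGF under gefitinib then gave 3 (7.13%) and the interaction 6 (15.7%). No paired analysis by replicate number was possible because the labels carry none, and time points were paired instead. Signal over background limits DUSP7, and the floor of DUSP6 in PC9.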
